A study of Mus musculus with 16 samples.

Results

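S1pr1-positive lung T cells are the lung cells of this study in which at least 1 count of S1pr1 was recorded, and they were set against the lung cells with 0 counts of S1pr1. They numbered 652 of 2322 lung cells and of 5727 cells in all. They are called positive cells below, and the 1670 lung cells with 0 counts are called zero cells. S1pr1 encodes sphingosine 1-phosphate receptor 1, a receptor on the surface of lymphocytes that senses the lipid sphingosine 1-phosphate (S1P). Blood and lymph are rich in S1P and tissues hold little of it, and T cells follow this gradient out of a tissue. The transcription factor KLF2 turns on S1pr1 in T cells, and the surface protein CD69 binds the receptor and takes it off the membrane. Memory T cells that stay in a tissue are known for low Klf2 and low S1pr1.

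All cells were Pmel CD8 T cells, whose transgenic receptor recognizes the melanoma protein gp100 and which bear the congenic marker Thy1.1, from C57BL/6 mice aged 16 weeks. The mice had melanoma-associated vitiligo, in which the immune system destroys pigment cells, and cells were taken 45 days after tumor surgery. The series holds 4 samples each of lung, liver, the draining lymph node and skin, whose titles differ only in an ending that has the form of a sequencing lane, so each tissue was treated as 1 library. The labels give no mouse numbers, and no untreated mice or mice without disease were analysed here. Every value below is therefore from a single library, no difference was tested and no p-value is given. Lungs were minced, digested with Liberase and DNase and passed through a Percoll gradient, and the sources used here do not say whether cells inside blood vessels were kept out.

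The positive cells held 2627304 counts and the zero cells 5444974. Levels are in CPM, a gene's summed count on one side scaled to 1000000 counts of all genes. A ratio is the level in positive cells over the level in zero cells. Intervals are exact 95% intervals that cover counting error only, not differences between mice. Because the cells were chosen by their S1pr1 count, values of S1pr1 itself describe the choice and are no finding. Of the 652 positive cells, 522 had exactly 1 count of S1pr1, 112 had 2, 16 had 3 and 2 had 4. Most of the positive cells were therefore 1 count away from the zero cells. S1pr1 stood at 305 CPM in positive cells, at 0 counts in zero cells and at 99.4 CPM (92.6 to 106) over all lung cells. The S1pr1 gene lies on chromosome 3 at 115710433 to 115715072 on the minus strand (GRCm38, GENCODE M21 annotation), is protein coding and has 1 annotated transcript with 2 exons.

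Both sides carried the transcripts of CD8 T cells. Cd8b1, a chain of the CD8 coreceptor, stood at 2975 CPM in positive cells and 2951 CPM in zero cells. Cd3e, a signaling chain of the T cell receptor, stood at 636 CPM in positive cells and 625 CPM in zero cells. Cd8a, the other chain of the coreceptor, stood at 634 CPM in positive cells and 712 CPM in zero cells (ratio 0.890, 0.839 to 0.942), or 0.945 depth-matched. Thy1 stood at 501 CPM in positive cells and 547 CPM in zero cells (ratio 0.915, 0.857 to 0.977), or 0.959 depth-matched. Of 16 T cell identity genes, 8 were higher and 8 lower in positive cells, with a median log2 ratio of -0.02. The 8699 genes measured with at least 20 counts in lung had a median of -0.04, with 44.3% of them higher and 55.7% lower in positive cells.

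S1pr1 is also a gene of blood vessel endothelium. Of 13 endothelial markers listed, 1 was analysed here, Pecam1, at 7.99 CPM in positive cells and 7.53 CPM in zero cells. Of 13 myeloid markers analysed here 9 had at least 20 counts, and together these stood at 194 CPM in positive cells and 192 CPM in zero cells, with the macrophage gene Csf1r at 0 counts. The B cell markers with enough counts (3 of 6 analysed) summed to 29.3 CPM in positive cells and 21.9 CPM in zero cells. The single lung epithelial marker with enough counts (of 2 analysed), Scgb1a1, stood at 11.4 CPM in positive cells and 17.1 CPM in zero cells. NK cell markers (3 analysed), which CD8 T cells share in part, summed to 282 CPM in positive cells and 299 CPM in zero cells. Gamma delta T cell markers (3 analysed) summed to 157 CPM in positive cells and 177 CPM in zero cells, and CD4 T cell markers (2 analysed) to 23.2 CPM in positive cells and 20.4 CPM in zero cells. Markers of red cells and platelets were not analysed here. The part of these markers in the differences below was not tested.

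Depth separated the sides. The median positive cell had 3430 counts (quartiles 2561 and 5127) and 1217 genes, and the median zero cell had 2766 counts (quartiles 2157 and 3865) and 1088 genes. The mitochondrial share of counts was 1.87% in positive cells and 1.87% in zero cells. The ribosomal protein share was 24.7% in positive cells and 24.97% in zero cells. Across 10 bins of lung cells from shallow to deep, the share of cells with an S1pr1 count was 13.2% in the shallowest bin, 26.9% in the fifth and 45.5% in the deepest. The S1pr1 level did not climb with depth. It was 98.6 CPM in the shallowest bin, 125 CPM in the fourth, where it was highest, and 79.9 CPM (67.2 to 94.3) in the deepest. Because detection moved with depth, ratios are also given depth-matched, with the zero cells weighted to the depths of the positive cells.

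The number of positive cells can be set beside the number that a single S1pr1 level gives. The level is taken from the same counts that chose the cells, so the agreement of the first number is nearly fixed and does not show that all cells had 1 level. If every lung cell held S1pr1 at 99.4 CPM and cells differed only in depth, Poisson counting would give 655 cells with at least 1 count, and 652 were observed. It would give 124 cells with at least 2 counts, and 130 were observed. It would give 19.7 cells with at least 3 counts, and 18 were observed. This single level gives 14.7% in the shallowest bin and 52.3% in the deepest, where the observed interval ended at 52.1%. In the fourth bin it gives 22.1%, where the observed interval began at 22.3%. The sources used here do not say whether the counts are of molecules or of reads, on which a Poisson number rests.

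The share of cells with a count was also taken at equal depth. Lung cells were thinned at random to 1830 counts apiece, the depth that all but the shallowest 10% of them reach. At that depth 622 positive and 1468 zero cells were deep enough, and 344 of these 2090 cells (16.5%, 14.9% to 18.1%) kept an S1pr1 count. This is a share of cells with a count, which at so low a depth does not limit the share of cells that express the gene. Transcripts that a CD8 T cell should lack were found in fewer lung cells at that depth. Cd74 of antigen-presenting cells, which activated T cells can also carry at low levels, was found in 6.51%. Lyz2 of myeloid cells was found in 4.59%, Scgb1a1 of airway epithelium in 1.96%, Igkc of B cells in 1.91% and Cd79a of B cells in 0.0478%.

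**Figure D1:**
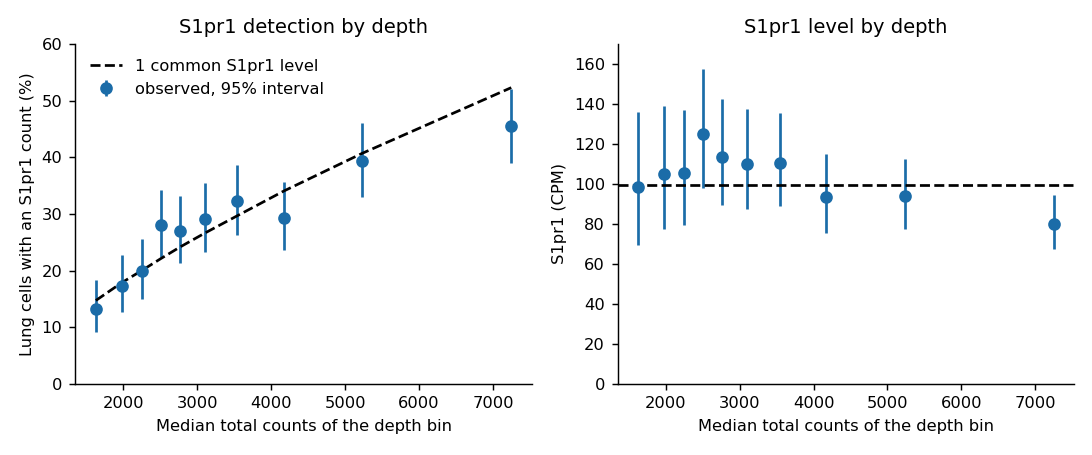
S1pr1 in lung cells by depth, in 10 bins of cells ordered by total counts (x axis, median counts of the bin). Left, the percentage of cells with an S1pr1 count; right, the S1pr1 level in CPM. Points are observed values with exact 95% intervals and dashed lines show a single level of 99.4 CPM in every cell. The share is 13.2% in the shallowest bin and 45.5% in the deepest. The dashed curve lies inside the intervals except in the fourth bin (22.1%, interval 22.3% to 34.3%) and the deepest (52.3%, interval 39.0% to 52.1%). The level stays between 79.9 and 125 CPM.

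Genes of the S1P and egress pathway differed little between positive and zero cells. Klf2 stood at 1078 CPM in positive cells and 1132 CPM in zero cells, a ratio of 0.952 (0.910 to 0.996). Depth-matched, the Klf2 ratio was 1.09, on the other side of 1. S1pr4, another S1P receptor of T cells, stood at 421 CPM in positive cells and 396 CPM in zero cells (ratio 1.06, 0.988 to 1.14). S1pr2, a further receptor of the family, had 9 counts in positive cells and 20 in zero cells, too few to compare. Cd69 stood at 120 CPM in positive cells and 130 CPM in zero cells (ratio 0.917, 0.80 to 1.05), and its depth-matched ratio was 0.996. Of these 3 genes with enough counts, none was as much as 10% apart.

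The wider list of egress and S1P genes had 19 measured members. In positive cells 11 were higher and 8 lower, with a median log2 ratio of 0.05. Past a limit of 25% higher or 20% lower, which 10.5% and 16.8% of all measured genes passed, were 2 genes upward and 1 downward. The 2 upward were Ccr7, a lymph node homing receptor (13 counts in positive cells and 16 in zero cells), and Foxo3, a transcription factor (28 counts in positive cells and 45 in zero cells), both with intervals that held 1. The 1 downward was Rgs1, a brake on signaling from G protein-coupled receptors that is known for holding T cells in tissue. Rgs1 stood at 233 CPM in positive cells and 316 CPM in zero cells (ratio 0.737, 0.671 to 0.808), and its ratio was 0.763 depth-matched.

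Other parts of the pathway lay nearer to 1. Gnai2, a G protein subunit through which S1PR1 signals, stood at 445 CPM in positive cells and 412 CPM in zero cells (ratio 1.08, 1.01 to 1.16), or 1.02 depth-matched. Klf3, a relative of Klf2, stood at 17.9 CPM in positive cells and 14.7 CPM in zero cells (ratio 1.22, 0.831 to 1.77). Sphk2, an enzyme that makes S1P, had 22 counts in positive cells and 41 in zero cells. Sgpl1, the enzyme that degrades it, had 38 counts in positive cells and 94 in zero cells, and the intervals of both ratios held 1.

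With cells divided by Klf2 instead, the S1pr1 level was higher in cells with more Klf2 counts. Lung cells were grouped by their Klf2 counts after thinning, and S1pr1 levels were taken from their counts before thinning. Cells with 3 or more counts of Klf2 had S1pr1 at 115 CPM (102 to 130) and those with 2 at 107 CPM. Those with 1 had it at 97.6 CPM and those with 0 at 75.6 CPM (63.7 to 89.0). The intervals of the first and last of these did not meet. Median depth was 2723 counts in cells with 3 or more Klf2 counts and 3540 in cells with 0. At equal depth S1pr1 was found in 18.6% (15.8% to 21.6%) of cells with 3 or more and 19.2% of cells with 2. It was found in 15.6% of cells with 1 and 11.6% (8.86% to 14.9%) of cells with 0. Cells with a count of Il7r, the interleukin 7 receptor of memory T cells, had S1pr1 at 130 CPM (112 to 151), against 92.8 CPM (85.4 to 101) in cells without. Median depth was 2712 counts in cells with Il7r and 3282 in cells without.

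Of the residency markers, Itgae and Cd69 gave like S1pr1 levels on both sides and Rgs1 gave a lower share at its higher counts. Cells with a count of Itgae, which encodes the integrin CD103 of resident cells, had S1pr1 at 109 CPM (95.9 to 124), against 95.6 CPM (87.7 to 104) in cells without. Cells with a count of Cd69 had S1pr1 at 102 CPM (86.5 to 120), against 98.8 CPM (91.2 to 107) in cells without. The 117 cells with counts of both Itgae and Cd69 had S1pr1 at 98.5 CPM (70.4 to 134), against 99.5 CPM in the others. By Rgs1 counts after thinning, S1pr1 was found in 8.33% (3.42% to 16.4%) of the 84 cells with 3 or more, 7.69% (3.58% to 14.1%) of the 117 cells with 2, 17.8% (14.1% to 21.9%) of the 400 cells with 1 and 17.3% (15.4% to 19.3%) of the 1489 cells with 0. The S1pr1 level was 84.99 CPM (55.0 to 125) in cells with 3 or more Rgs1 counts, 65.0 CPM (43.5 to 93.3) in cells with 2 and 101 CPM (93.2 to 110) in cells with 0.

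Residency genes leaned lower in positive cells, and most of that lean was not there with depth matched. Of 30 measured tissue residency genes, 6 were higher and 24 lower, with a median log2 ratio of -0.15. Depth-matched, 12 of the 30 were higher, beside 48.8% of all measured genes, and the median was -0.03. Itgae stood at 190 CPM in positive cells and 191 CPM in zero cells. Cxcr6, a chemokine receptor of resident cells, stood at 1035 CPM in positive cells and 1087 CPM in zero cells (ratio 0.952), or 1.02 depth-matched. Cdh1, which encodes E-cadherin, the ligand of CD103, had 8 counts in positive cells and 45 in zero cells (ratio 0.368, 0.150 to 0.790), and 0.544 depth-matched.

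Recirculation genes leaned higher by small steps. Of 19 measured genes 16 were higher and 3 lower in positive cells, and the median log2 ratio was 0.09, or 0.05 depth-matched. Vim, a filament protein, stood at 3400 CPM in positive cells and 2908 CPM in zero cells (ratio 1.17, 1.14 to 1.20). Rasgrp2, an activator of integrins, stood at 334 CPM in positive cells and 292 CPM in zero cells (ratio 1.14, 1.05 to 1.24). Depth-matched, the ratio was 1.03 for Vim and 1.09 for Rasgrp2. Of 12 S100, galectin and annexin genes 11 were higher in positive cells, with a median of 0.10 that became 0.03 depth-matched. Lgals1, which encodes galectin-1, had a ratio of 1.11 (1.10 to 1.13), or 1.01 depth-matched.

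Genes of circulating and central memory were scarce or alike. Tcf7, a factor of stem-like memory cells, stood at 6.09 CPM in positive cells and 6.98 CPM in zero cells. Cx3cr1, a receptor of circulating effector cells, stood at 63.6 CPM in positive cells and 65.4 CPM in zero cells (ratio 0.972). Klrg1, a receptor of the same cells, stood at 20.6 CPM in positive cells and 13.4 CPM in zero cells (ratio 1.53, 1.06 to 2.21), or 1.09 depth-matched. Of 11 circulating effector memory genes 6 were higher and 5 lower, with a median of 0.08, and of 13 central memory and stemness genes 9 were higher and 4 lower, with a median of 0.07.

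Over all genes, few differed by much. Of 2195 genes with at least 50 CPM in lung, 29 were at least 25% higher in positive cells (1.32%) and 50 were at least 20% lower (2.28%), or 79 in either direction (3.6%). From the 5th to the 95th percentile, the 2195 ratios lay between 0.832 and 1.17. Depth-matched, 23 genes were past the limit upward (1.05%) and 18 downward (0.82%). Past it both ways of counting were 8 genes upward and 14 downward. The 24 genes described next, 12 in each direction, were taken by a rule on the interval of the ratio. That rule asked for 50 CPM on the higher side only. Cenpa, Msc, Aph1a, Bcl2 and Pim2 entered that way, at 41.9 to 49.8 CPM over all lung cells. They are not among the 2195 genes or the numbers past the limit given here.

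Cell cycle genes led the higher side. Ube2c, which marks mitotic proteins for destruction, stood at 95.5 CPM in positive cells and 30.9 CPM in zero cells (ratio 3.10, 2.54 to 3.79), or 2.04 depth-matched. Its 251 counts in positive cells came from 92 cells, of which 10 held 142 counts, and its 168 counts in zero cells came from 100 cells. Cenpa, the histone of centromeres, stood at 76.5 CPM in positive cells and 36.2 CPM in zero cells (ratio 2.11, 1.73 to 2.59), or 1.68 depth-matched. The chromatin protein gene Hmgn2 had a ratio of 1.55, or 1.23 depth-matched. Hmgb2, another, had a ratio of 1.28, or 1.08 depth-matched.

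Of 28 proliferation genes 22 were higher in positive cells, beside 44.3% of all genes with at least 20 counts. Past the limit upward were 14 of the 28, beside 10.5% of those genes, and the median log2 ratio was 0.33. Depth-matched, 12 of 28 were higher and the median was -0.03. Single genes of the list lay on both sides of 1. Ccnb2, a mitotic cyclin, stood at 57.9 CPM in positive cells and 20.9 CPM in zero cells, and kept a depth-matched ratio of 1.72. Mcm6, a subunit of the DNA helicase of replication, stood at 54.4 CPM in positive cells and 58.2 CPM in zero cells, and had a depth-matched ratio of 0.740. The depth-matched ratio was 1.34 for Top2a, a topoisomerase of dividing cells, and 0.892 for Mki67, which encodes the proliferation antigen Ki-67. Cells with a count of Mki67, Top2a, Birc5 or Ube2c made up 21.9% of positive cells, 13.5% of zero cells and 19.4% of zero cells weighted to the same depths. These cells were deep, with a median of 4994 counts, against 2756 in the other lung cells. With cells that had such a count left out, the ratio was 1.32 for Cenpa, 1.34 for Hmgn2 and 1.03 for Hmgb2.

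Metallothioneins and a granzyme were also on the higher side. Mt1, which binds zinc and copper, stood at 198 CPM in positive cells and 134 CPM in zero cells (ratio 1.47, 1.31 to 1.65), or 1.15 depth-matched. Mt2, of the same family, stood at 71.2 CPM in positive cells and 43.5 CPM in zero cells (ratio 1.64, 1.34 to 1.99), or 1.20 depth-matched. Gzma, which encodes the killer cell protease granzyme A, stood at 17031 CPM in positive cells and 13481 CPM in zero cells (ratio 1.26, 1.249 to 1.28), or 1.03 depth-matched.

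Some genes of the higher side hardly moved with depth. Itgax, the integrin CD11c, which activated CD8 T cells also carry, stood at 84.5 CPM in positive cells and 58.8 CPM in zero cells (ratio 1.44, 1.21 to 1.71), or 1.39 depth-matched. Aph1a, a subunit of gamma-secretase, stood at 60.5 CPM in positive cells and 40.0 CPM in zero cells (ratio 1.51, 1.22 to 1.86), or 1.51 depth-matched. Msc, the transcription factor musculin, had a ratio of 1.56, or 1.43 depth-matched. When positive cells had to hold at least 2 S1pr1 counts, the ratio was 1.09 for Msc and 1.22 for Arl5c, a small GTPase, both inside the limit. Nccrp1 had a ratio of 1.56, or 1.40 depth-matched, and Arl5c had 1.49, or 1.42 depth-matched.

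On the lower side all 12 genes had a depth-matched ratio nearer to 1 than the plain one. Bcl2, which blocks cell death, stood at 18.7 CPM in positive cells and 62.1 CPM in zero cells (ratio 0.300, 0.218 to 0.406), or 0.530 depth-matched. Pim2, a survival kinase, stood at 31.6 CPM in positive cells and 58.6 CPM in zero cells (ratio 0.539, 0.418 to 0.689), or 0.723 depth-matched. Socs1, an inhibitor of cytokine signaling, stood at 49.1 CPM in positive cells and 84.3 CPM in zero cells (ratio 0.582, 0.475 to 0.710), or 0.706 depth-matched. Cdk6, a cell cycle kinase, had a ratio of 0.623, or 0.759 depth-matched, and Cdkn1a, an inhibitor of such kinases, had 0.646, or 0.725 depth-matched. The protease inhibitor gene Serpina3g had a ratio of 0.605, or 0.716 depth-matched, and the noncoding RNA Snhg12 had 0.588, or 0.748 depth-matched. Rgs1, described above, was also among the 12.

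The remaining 4 of the lower side were less than 20% lower with depth matched. Malat1, a noncoding RNA kept in the nucleus, stood at 13261 CPM in positive cells and 17201 CPM in zero cells (ratio 0.771, 0.762 to 0.781), or 0.972 depth-matched. Klf6, an immediate early transcription factor, stood at 413 CPM in positive cells and 552 CPM in zero cells (ratio 0.747), or 0.912 depth-matched. The linker histone gene Hist1h1c had a ratio of 0.660, or 0.812 depth-matched, and Fam133b had 0.678, or 0.836 depth-matched.

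**Figure D2:**
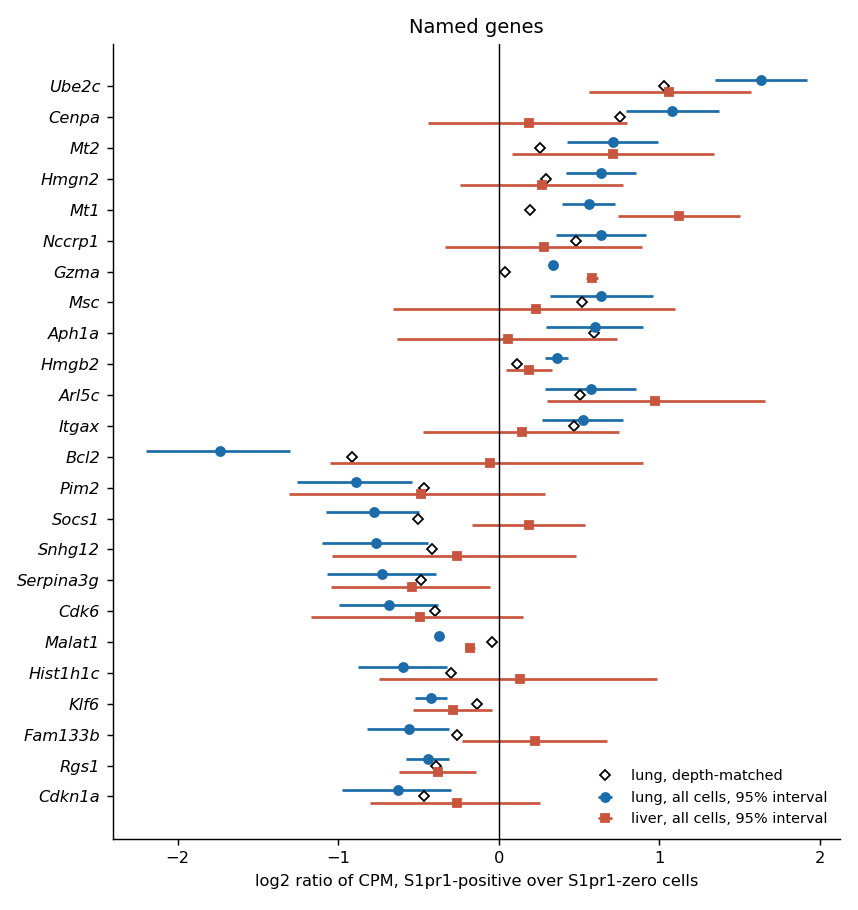
The 24 genes named by rule, 12 in each direction, as the log2 ratio of CPM in S1pr1-positive over S1pr1-zero cells (x axis). Blue points are lung, open diamonds lung with depth matched, and red squares the same split of liver cells; bars are exact 95% intervals. Most diamonds lie nearer to 0 than the blue points, as for Gzma (ratio 1.26, or 1.03 depth-matched), whereas those of Aph1a, Itgax and Rgs1 hardly move.

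Stress genes leaned lower in positive cells. Of 13 measured heat shock genes 11 were lower and 2 higher, with a median log2 ratio of -0.19, and with depth matched 1 of 13 was higher (median -0.10). Hspa1a, an inducible heat shock protein gene, stood at 57.1 CPM in positive cells and 133 CPM in zero cells (ratio 0.429, 0.357 to 0.512), or 0.695 depth-matched. In positive cells 10 cells held 112 of its 150 counts. Hspa1b is nearly identical to it in sequence, so the division of reads between the 2 is uncertain. The AP-1, ATF4 and stress list was lower in 12 of 15 genes, with a median of -0.20 that became 0.08 depth-matched. Mthfd2, an enzyme of mitochondrial folate metabolism on that list, had a ratio of 0.582 (0.417 to 0.801), or 0.660 depth-matched.

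Lists of signal response genes also leaned lower. Of 23 immediate early genes, which switch on soon after stimulation, 14 were lower and 9 higher in positive cells, with a median of -0.09, or 0.08 depth-matched. Jun stood at 27.0 CPM in positive cells and 38.2 CPM in zero cells (ratio 0.707), or 0.943 depth-matched. Of 15 TGF-beta response genes 12 were lower, with a median of -0.25, or -0.09 depth-matched. Smad7, an inhibitor of that pathway, stood at 25.9 CPM in positive cells and 37.3 CPM in zero cells (ratio 0.694, 0.520 to 0.918), or 0.889 depth-matched. Cytotoxic effector genes (8 of 20 higher, median -0.02) and interferon stimulated genes (11 of 23 higher, median -0.02) lay near the value of all measured genes.

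Shares of cells at equal depth gave another reading of the same cells. After thinning, 52 of 2195 genes (2.37%) differed by at least 5 percentage points in the share of cells with a count. The 5 widest gaps were toward positive cells. Pycard, an adaptor of inflammasomes, was found in 73.3% of positive cells and 62.7% of zero cells. Gzmk, another granzyme, was found in 48.4% of positive cells and 38.6% of zero cells. Ly6a, a surface protein of activated T cells, was found in 73.6% of positive cells and 66.1% of zero cells. Its depth-matched ratio of levels was 0.964, and in liver at equal depth it was found in 64.9% of positive cells and 70.0% of zero cells. Mt1 was found in 23.0% of positive cells and 15.7% of zero cells, and Klrd1, the NK receptor chain CD94, in 87.9% of positive cells and 80.7% of zero cells. Thinning does not make alike the kinds of cells that were deep or shallow before it. Depth-matched ratios of levels were 1.09 for Pycard, 1.07 for Gzmk, 1.15 for Mt1 and 1.06 for Klrd1. The median number of genes at this depth was 805 in positive cells and 808 in zero cells.

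Egress and residency genes had narrower gaps in share. Klf2 was found in 81.0% of positive cells and 76.4% of zero cells. S1pr4 was found in 52.3% of positive cells and 49.8% of zero cells, and Itgae in 31.2% of positive cells and 27.7% of zero cells. Cxcr6 was found in 84.1% of positive cells and 83.9% of zero cells, and Cd69 in 19.3% of positive cells and 19.4% of zero cells.

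S1pr1 was uneven over groups of lung cells that were found without it. Clustering without S1pr1 and receptor segments gave 5 clusters. S1pr1 stood at 127 CPM (114 to 140) in cluster 1, which held 1104 cells led by Il7r, H2-Ke6, Fxyd4 and Klf2. It stood at 93.9 CPM (83.7 to 105) in cluster 2, which held 686 cells led by Klri2, Mt2, Mt1 and Ifitm3. It stood at 41.2 CPM (28.7 to 57.3) in the 376 cells of cluster 3. In cluster 4, cycling-like, with 105 cells, it stood at 77.8 CPM (59.5 to 99.9), and in cluster 5, interferon responding-like, with 51 cells, at 115 CPM (71.8 to 173). The interval of cluster 3 lay below those of the other 4.

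The order was the same at equal depth, where S1pr1 was found in 19.9% of cluster 1, 15.4% of cluster 2, 4.87% of cluster 3, 13.3% of cluster 4 and 19.6% of cluster 5. Klf2 did not follow it throughout. Klf2 stood at 1657 CPM in cluster 1, 802 CPM in cluster 2, 816 CPM in cluster 3, 701 CPM in cluster 4 and 1140 CPM in cluster 5, so clusters 2 and 3 had like levels of Klf2 and S1pr1 levels whose intervals did not meet.

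Cluster 3 was led by Trib3, Bcl2, Slc7a5, Lta, Atf5, Asns and Hspa1a, among them targets of the amino acid stress factor ATF4, and was given no cell type name. Its cells were the shallowest, with a median of 1937 counts. At the single lung level of S1pr1 their depth gives 19.7% of cells with a count, and 8.51% were observed. Cluster 3 made up 4.91% of positive cells and 20.6% of zero cells. Cluster 2 made up 37.0% of positive cells and 26.6% of zero cells, cluster 1 48.3% of positive cells and 47.2% of zero cells, and cluster 4 7.21% of positive cells and 3.47% of zero cells. Bcl2, Pim2 and Hspa1a were thus both leading genes of cluster 3 and lower in positive cells. Without cluster 3, an alternative added after the data were seen, 15 genes were past the limit downward in place of 50.

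**Figure D3:**
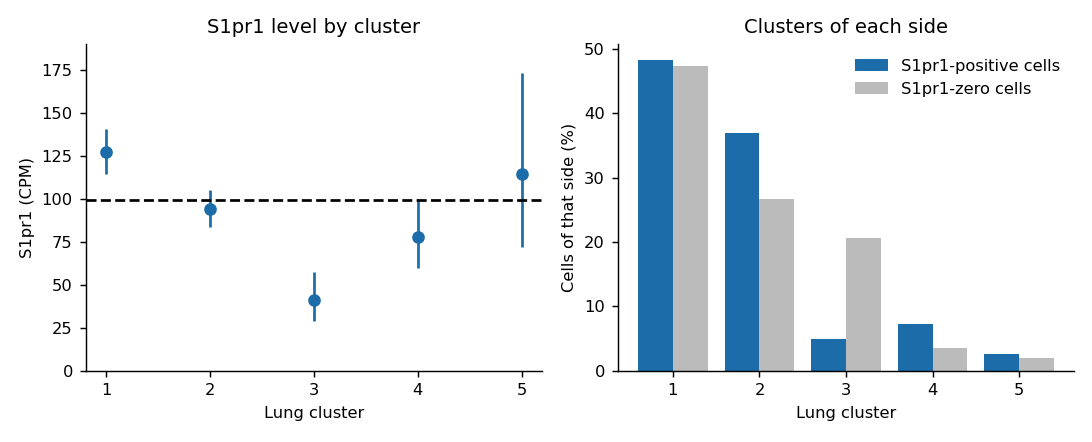
S1pr1 over the 5 lung clusters. Left, the S1pr1 level in CPM with exact 95% intervals and the level of all lung cells (dashed, 99.4 CPM); right, the percentage of S1pr1-positive cells (blue) and of S1pr1-zero cells (gray) in each cluster. Cluster 3 is lowest at 41.2 CPM and holds 4.91% of S1pr1-positive and 20.6% of S1pr1-zero cells.

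Within the 2 large clusters the ratios of Klf2, S1pr4 and Cd69 lay near 1, with the Klf2 interval of cluster 2 below it. In cluster 1, with 315 positive and 789 zero cells, the Klf2 ratio was 1.0 (0.940 to 1.06). In cluster 2, with 241 positive and 445 zero cells, it was 0.917 (0.846 to 0.994). The S1pr4 ratio was 0.996 in cluster 1 and 0.977 in cluster 2, and the Cd69 ratio was 0.944 in cluster 1 and 1.05 in cluster 2. The S1pr4 and Cd69 intervals all held 1. The Gzma ratio was 1.01 (0.984 to 1.035) in cluster 1 and 1.07 (1.05 to 1.09) in cluster 2. The Bcl2 ratio was 0.826 in cluster 1 and 0.830 in cluster 2, and both Bcl2 intervals held 1. The Rgs1 ratio was 0.831 (0.685 to 1.004) in cluster 1 and 1.04 (0.913 to 1.19) in cluster 2. The Ube2c ratio was 1.09 (0.771 to 1.54) in cluster 2, or 0.988 depth-matched. In cluster 1 Ube2c had 2 counts in positive cells and 2 in zero cells, too few to compare. Median depth was 2672 counts in positive and 2558 in zero cells of cluster 1, and 4869 counts in positive and 4349 in zero cells of cluster 2.

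In cluster 2 intervals of some genes lay above 1. Itgax stood there at 96.1 CPM in positive cells and 59.9 CPM in zero cells (ratio 1.61, 1.24 to 2.08), or 1.55 depth-matched. Mt1 stood at 308 CPM in positive cells and 213 CPM in zero cells (ratio 1.45, 1.26 to 1.66), or 1.24 depth-matched. Aph1a stood at 69.5 CPM in positive cells and 44.3 CPM in zero cells (ratio 1.57, 1.15 to 2.13), or 1.62 depth-matched. In cluster 1 the ratio was 1.15 for Itgax, 1.14 for Mt1 and 1.246 for Aph1a, each with an interval that held 1. Of the genes with at least 50 CPM, 7.66% were past the limit in cluster 1 and 7.53% in cluster 2.

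The same split of liver cells gave 200 positive and 356 zero cells. S1pr1 stood at 99.4 CPM over lung cells and 143.7 CPM (127 to 162) over liver cells, and at equal depth it was found in 16.5% of lung cells and 21.3% (17.9% to 25.1%) of liver cells. In liver a single level gives 211 cells with a count, and 200 were observed. It gives 52.7 cells with at least 2 counts, where 52 were observed, and 10.8 cells with at least 3, where 16 were observed. Of the 24 genes named in lung, 21 had a liver ratio on the same side of 1, all 12 of the higher side and 9 of the 12 of the lower. The exceptions were Socs1, Hist1h1c and Fam133b. Over 2029 genes with enough counts in both tissues 1143 (56.3%) were on the same side. Of the 63 of these that were past the limit in lung, 45 (71.4%) were. With depth matched in liver, 15 of the 24 named genes were on the same side, and the share over all genes was not taken. Those that were not were Cenpa, Hmgn2, Aph1a and Hmgb2 of the higher side. Of the lower side they were Bcl2, Socs1, Malat1, Hist1h1c and Fam133b.

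By gene, the liver ratio was 2.08 for Ube2c, 2.18 for Mt1, 1.496 for Gzma and 0.769 for Rgs1. Depth-matched in liver, it was 1.26 for Ube2c, 1.98 for Mt1, 1.28 for Gzma and 0.803 for Rgs1. Klf2 had a liver ratio of 1.05 (0.981 to 1.13). Cd69 had a liver ratio of 0.640 (0.457 to 0.884), against 0.917 in lung with an interval that held 1, and the difference between the tissues was not tested. In liver 26 of 27 proliferation genes were higher in positive cells, beside 49.5% of all measured genes, and the median log2 ratio was 0.36. Depth-matched, 13 of 27 were higher and the median was -0.02. Of 2164 liver genes 14.1% were past the limit in either direction.

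In the draining lymph node 63 of 1625 cells had an S1pr1 count, and the ratios of the egress genes lay farther from 1 than in lung. S1pr1 stood at 99.4 CPM in lung and 15.4 CPM (12.04 to 19.5) in lymph node, where 7 cells had at least 2 counts and a single level gives 1.61. The Klf2 ratio was 0.952 in lung and 3.21 (2.72 to 3.77) in lymph node, or 2.94 depth-matched there. The S1pr4 ratio was 1.06 in lung and 1.68 (1.27 to 2.17) in lymph node, or 1.60 depth-matched there. The Cd69 ratio was 0.917 in lung and 0.237 (0.0766 to 0.558) in lymph node, or 0.248 depth-matched there. It rested on 5 Cd69 counts in positive lymph node cells, beside 425 in zero cells, so its size is uncertain. Klf2 had 172 counts in positive lymph node cells. So of the lymph node cells, those with an S1pr1 count had more Klf2 transcript than those without, and the lower Cd69 level rested on few counts.

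In lymph node Gzma and Ly6c2 had ratios above 1, and Rgs1 and Itgae had ratios below it. The Gzma ratio was 1.26 in lung and 3.45 (3.12 to 3.81) in lymph node, or 1.93 depth-matched there. The ratio of Ly6c2, a surface protein of circulating memory cells, was 1.05 in lung and 3.88 (2.79 to 5.31) in lymph node, or 2.72 depth-matched there. The Rgs1 ratio was 0.737 in lung and 0.489 (0.367 to 0.639) in lymph node, or 0.546 depth-matched there. The Itgae ratio was 0.994 in lung and 0.551 (0.400 to 0.740) in lymph node, or 0.578 depth-matched there. The cytotoxic effector list as a whole had 7 of 18 genes higher in lymph node, with a median of -0.16. The residency list had a lymph node median of -0.61 with 6 of 30 genes higher, and the recirculation list had 0.51 with 15 of 18 higher, beside 41.4% of all measured genes. Depth-matched there, the medians were -0.50 for residency and 0.36 for recirculation. Positive lymph node cells held 214262 counts in all, and 36.7% of 2618 genes were past the limit in either direction, so single ratios there are imprecise.

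In skin 17 of 1224 cells had an S1pr1 count (5.47 CPM over all skin cells), too few to compare. The tissues were separate libraries, so tissue and library cannot be told apart. Lung shared 1 barcode with liver, 7 with lymph node and 7 with skin.

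**Figure D4:**
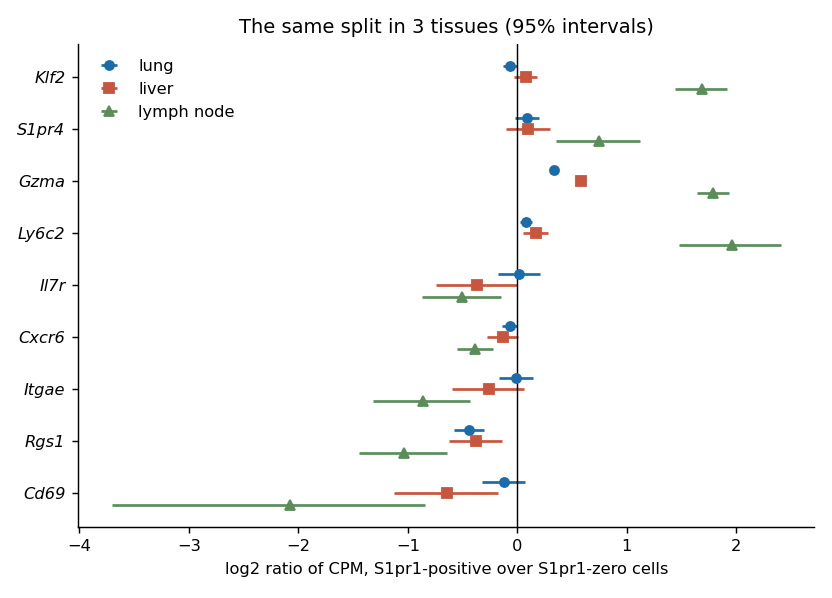
The same split in lung, liver and lymph node for 9 genes, as the log2 ratio of CPM in S1pr1-positive over S1pr1-zero cells with exact 95% intervals. For Klf2, Gzma and Ly6c2 the lymph node triangles lie right of the lung circles (Klf2 ratio 0.952 in lung and 3.21 in lymph node), and for Cd69, Rgs1 and Itgae they lie left of them.

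Across the 20 gene lists, 8 had a lung median at least 0.1 in size on the log2 scale, and 2 did with depth matched. These were heat shock at -0.10 and central memory and stemness at 0.13. The second rested on genes of few counts, among them Lef1 (13 counts in positive cells and 16 in zero cells) and Il6ra (19 in positive cells and 19 in zero cells). Il7r, of the same list, stood at 126 CPM in positive cells and 124 CPM in zero cells (ratio 1.01), or 1.23 depth-matched. In liver the same list had a median of -0.31.

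**Figure D5:**
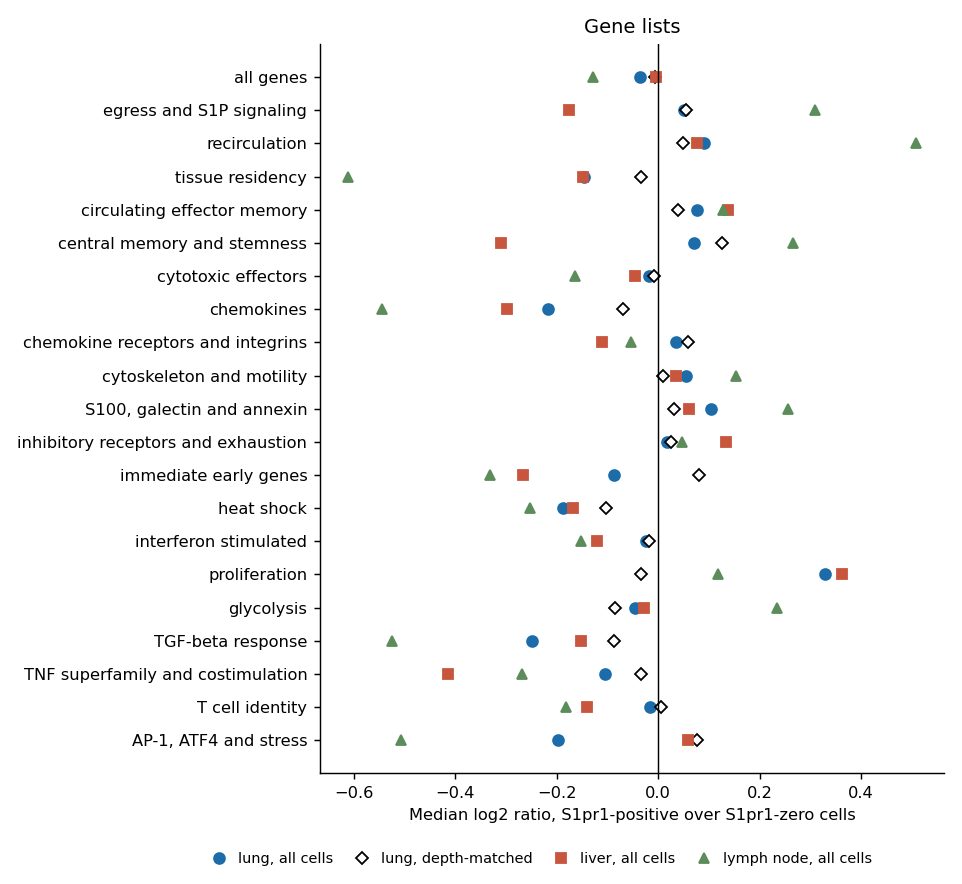
Median log2 ratio of 20 gene lists and of all measured genes, S1pr1-positive over S1pr1-zero cells. Blue circles are lung, open diamonds lung with depth matched, red squares liver and green triangles lymph node. Lung circles lie between -0.25 and 0.33, and lung diamonds between -0.10 and 0.13. Lymph node triangles, which are not depth-matched, run from -0.61 for tissue residency to 0.51 for recirculation. Depth-matched, which is not drawn, these 2 lymph node medians were -0.50 and 0.36.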

How the data were processed

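Single-cell RNA sequencing was done on lung, liver, lymph node and skin. The authors deposited 1 table of raw whole-number counts of 9223 genes in 5727 cells. The submitters' processing notes name Bowtie, RSEM and the genome build mm10, without versions. The sources used here do not say whether counts are of molecules or how genes and cells were filtered. Column names gave the tissue, and 0 columns lacked one.

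Counts were summed over the cells of each side and divided by the side's total (CPM), with no p-value, since cells are not replicates. Ratios carry the exact conditional binomial interval at 95%, and shares the Clopper-Pearson interval. A ratio was past the limit when the level was at least 25% higher or 20% lower. This was counted among genes with at least 50 CPM or, for lists, among genes with at least 20 summed counts. List members needed at least 20 summed counts. Depth matching weighted zero cells over 10 depth bins. Thinning to 1830 counts left out 30 positive and 202 zero lung cells. Clusters came from the Leiden method (resolution 0.6) on 2000 variable genes, 30 components and 15 neighbors (scanpy 1.11.5). Scrublet called 10 lung doublets (0.431%), 4 of them positive, which were kept; so low a rate does not show that the caller worked.

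The named genes are the 12 each way whose interval bound lay farthest from 1, that on the higher side reached 50 CPM and were found in 10% of cells, and that had a depth-matched ratio on the same side of 1. Ribosomal, mitochondrial, receptor segment, Gm and Rik genes and S1pr1 were left out. The 5 genes with the widest gap in share and list members could also be named. The calculation of ratios was checked on simulated counts of known folds. The cells, lists and comparisons were chosen with earlier results of these data known.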

Additional observations from a re-analysis of the deposited data

Results flagged for a closer look

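4 of the genes described above had ratios of S1pr1-positive over S1pr1-zero cells and 95% intervals that lay wholly on opposite sides of 1 in lung and in lymph node, with 1 library of each, and the difference between tissues was not tested. Klf2 had a ratio of 0.952 in lung and 3.21 in lymph node. Depth-matched, the Klf2 ratio was 1.09 in lung and 2.94 in lymph node, so the opposite sides were not kept. The survival kinase gene Pim2 had a ratio of 0.539 in lung and 1.92 in lymph node. The linker histone gene Hist1h1c had a ratio of 0.660 in lung and 1.81 in lymph node. Hspa1a had a ratio of 0.429 in lung and 3.61 in lymph node, where 63 cells had an S1pr1 count. Its 69 counts there came from 9.52% of those positive cells, and it was found in 6.85% of zero cells. The interval does not cover such gathering of counts in few cells. Depth-matched ratios in lung and lymph node were 0.723 and 2.30 for Pim2, 0.812 and 2.10 for Hist1h1c, and 0.695 and 3.99 for Hspa1a. The part that library and cell number play in these differences was not tested.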

How the results depend on the processing

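No paired analysis was possible because the columns carry no replicate numbers and each tissue is 1 library. The share of lung cells with S1pr1 was 28.1%, against 16.5% at equal depth and 5.60% with at least 2 counts required. Genes past the limit upward numbered 29, against 53 with equal weight per cell, 143 with at least 2 S1pr1 counts required of positive cells (130 cells), 47 without cells that had a cycling gene count, and 122 and 5 with floors of 20 and 200 CPM. Downward they numbered 50, against 18 depth-matched, 209 with at least 2 S1pr1 counts, 270 and 7 with those floors, and 15 without cluster 3, which was chosen after seeing the data. Lists with a median of at least 0.1 in size numbered 8, against 2 depth-matched, 5 without cells that had a cycling gene count and 3 without cluster 3. The proliferation median was 0.33, against -0.034 depth-matched. The rule that named 24 genes required the depth-matched direction and let genes in by the level on their higher side. Of their 167 other alternative values, 164 kept their direction. These values come from the same cells that chose the genes, so this number was nearly fixed in advance. With at least 2 S1pr1 counts 20 of the 24 were past the limit and 4 were not, Msc at 1.09, Arl5c at 1.22, Rgs1 and Cdkn1a. Those that lay on the other side of 1 were Rgs1 at 1.06 and Cdkn1a at 1.09 with at least 2 S1pr1 counts, and Cdkn1a at 1.003 without cluster 3. Ube2c and the proliferation median had no value without cells that had a cycling gene count, since Ube2c is one of the genes that define them. Depth limits every statement per cell: 522 of 652 positive cells rested on a single S1pr1 count.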

Other observations

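Other gene groups were described by the same split of lung cells. Of 6 chemokine genes 5 were lower in positive cells, with a median log2 ratio of -0.22, or -0.07 depth-matched. Ccl3, which attracts other immune cells, stood at 66.6 CPM in positive cells and 83.4 CPM in zero cells (ratio 0.799, 0.667 to 0.953), or 0.878 depth-matched. Ccl5, the most abundant chemokine transcript of these cells, had a ratio of 0.970, or 1.04 depth-matched. Of 12 TNF superfamily and costimulation genes 9 were lower, with a median of -0.11, or -0.03 depth-matched. Lta, which encodes lymphotoxin alpha, stood at 9.52 CPM in positive cells and 17.8 CPM in zero cells (ratio 0.534, 0.330 to 0.836). Tnfrsf4, which encodes the costimulatory receptor OX40, had 14 counts in positive cells and 7 in zero cells (ratio 4.14, 1.57 to 12.1), too few to compare.

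Lists of movement, exhaustion and metabolism had medians within 0.1 of 0 on the log2 scale. Of 31 cytoskeleton and motility genes 22 were higher in positive cells, with a median of 0.05, or 0.01 depth-matched. Dock8, a regulator of the cytoskeleton of migrating T cells, stood at 36.5 CPM in positive cells and 27.0 CPM in zero cells (ratio 1.35, 1.04 to 1.76), or 1.40 depth-matched. The list of inhibitory receptors and exhaustion had 5 of 9 genes on the higher side. Pdcd1, which encodes PD-1, had 53 counts in positive cells and 120 in zero cells (ratio 0.915, 0.650 to 1.27). Of 17 glycolysis genes 12 were lower, with a median of -0.05. Of 18 chemokine receptor and integrin genes 12 were higher, with a median of 0.03. Ly9, a SLAM family receptor named here after its values were seen, stood at 62.4 CPM in positive cells and 46.1 CPM in zero cells (ratio 1.35), or 1.38 depth-matched.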
